A study of Mus musculus with 9 samples.

Results

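The laminin-receptor integrins Itga6, Itgb1 and Itgb4 and the proteins that link integrin tails to the actin cytoskeleton were examined in testes of Tmem203 null mice. The linked proteins are integrin-linked kinase (Ilk), PINCH1 (Lims1), the 3 parvins (Parva, Parvb and Parvg) and focal adhesion kinase (Ptk2). All probe sets that the platform annotation assigns to a single gene of this list were taken, and 21 of the 45037 probe sets tested met that rule. They read 8 of the 9 genes, out of 18193 genes with such a probe set, and Ptk2 was not analysed here. The genes had been proposed with results of these arrays known, so the differences between the genotypes are given below as a description of the members and not as independent tests of them.

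Testis RNA of 5 Tmem203 null and 4 wild type (WT) samples was profiled on Affymetrix Mouse Genome arrays, all from C57BL/6J mice 24 weeks of age. The null allele is constitutive: the translation start and a piece of the 5′ untranslated region of Tmem203, which encodes a calcium-regulating membrane protein of the endoplasmic reticulum, were replaced in C57BL/6 embryonic stem cells, the selection cassette was removed with Flpe, and a short vector stretch with an FRT site stayed behind. WT mice carried neither change, and no drug treatment is recorded for either genotype. Since left and right testes were collected individually and the labels do not say that each array is a separate animal, p-values reflect no more than how these samples scatter.

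Integrins are receptors made of an alpha and a beta chain that hold cells to the extracellular matrix. The alpha 6 chain pairs with beta 1 or beta 4 to bind laminin, beta 4 being the chain of hemidesmosomes. Inside the cell ILK, PINCH and a parvin form a complex that joins the beta 1 tail to actin, while focal adhesion kinase signals from the same sites. In the testis these molecules are known from Sertoli cells, which stand on the basement membrane of the tubule and hold spermatids in the actin-rich ectoplasmic specialization, and alpha 6 is a surface marker used to enrich spermatogonial stem cells.

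Array medians lay between 6.96 and 7.05 on the log2 scale, and each array correlated with every other at 0.993 to 0.998. The probe set for Tmem203 gave log2 signals of 9.06 to 9.13 in null testes and 9.67 to 9.93 in WT testes, a difference of -0.70 (standard error 0.06, adjusted p = 2.87e-04 from limma). Where that probe set lies relative to the removed piece is not known here. Over all probe sets 7.48% passed an adjusted p under 0.05 from limma, with 4.12% higher and 3.36% lower in null testes. The split between higher and lower depends on the scaling: 1856 probe sets were higher and 1511 lower in null testes, against 1381 higher and 1884 lower when each array was centred on its median. The known tissue markers were present, since every marker of Sertoli cells, Leydig cells, spermatogonia, spermatocytes and spermatids that was measured was detected on at least 1 array by its brightest probe set (log2 signal of at least 5, the detection limit used here).

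Among the 21 member probe sets, 3 passed as higher in null testes (beside 4.12% of all probe sets), 3 passed as lower (beside 3.36%) and 15 did not pass. The higher ones read Itga6 (both of its probe sets) and Lims1, and the lower ones read Parva, Parvb and Parvg, 1 probe set each. At the thresholds of the study's methods, which ask in addition for a change of at least 1.5-fold and detection, 4 were kept, beside 1.1% of all probe sets. These were the Itga6 pair (2 higher, beside 0.635%) and Parvb and Parvg (2 lower, beside 0.469%). The study's own tables of changed genes hold Itga6 and Parvg but not Parvb. The study also names Itga6 among raised genes of germ cell to Sertoli cell junctions. The null samples did not overlap the WT samples on 6 of the 21, and on 11.8% of all probe sets. Detection held for 17 of the 21, and the 6 that passed and did not overlap were all among these, while 9.38% of detected probe sets passed and 14.6% did not overlap. The 4 that were not detected on any array read Itgb1 (3) and Lims1 (1). Of the 6 members with at least 2 detected probe sets, 5 had at least 1 that passed, as had 18.6% of such genes. The median difference over the 21 was 0.01, beside -0.01 over all probe sets. The members were chosen with this contrast known, so nothing is read from how these shares compare.

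**Figure D1:**
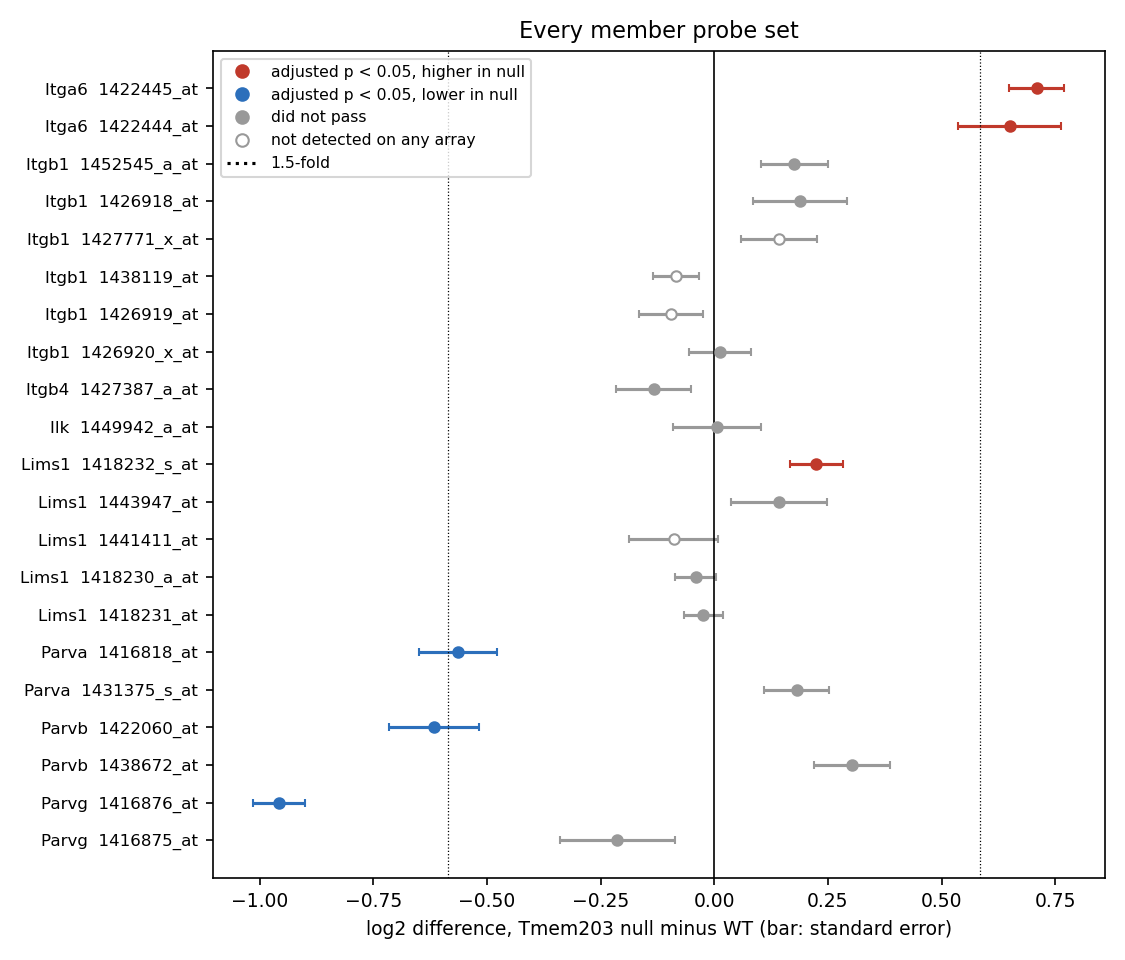
Log2 difference between 5 Tmem203 null and 4 WT testes (horizontal axis, null minus WT) for each of the 21 member probe sets, grouped by gene down the vertical axis, with bars for the standard error. Red points passed as higher in null, blue points as lower, grey points did not pass and open points were not detected on any array, and the dotted lines mark 1.5-fold. Both Itga6 points lie to the right at 0.65 and 0.71, and Parva, Parvb and Parvg each have a blue point to the left, from -0.96 to -0.56, and a grey one closer to or beyond 0.

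Of the laminin receptors, Itga6, the alpha chain, rose in null testes on both of its probe sets. On 1422445_at its log2 signals were 11.14, 11.03, 11.03, 11.21 and 11.20 in null replicates 1 to 5, against 10.40, 10.32, 10.48 and 10.45 in WT replicates 1 to 4. The samples of each genotype lay close together and the genotypes were apart, the lowest null sample standing 0.55 above the highest WT sample. The mean was 11.12 ± 0.09 (SD, n = 5) in null testes and 10.41 ± 0.07 (SD, n = 4) in WT testes, which is 1.63-fold (log2 difference 0.71, standard error 0.06, adjusted p = 1.83e-04 from limma). By its p this probe set ranked 68 among the 45037.

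The second probe set of Itga6, 1422444_at, gave 8.84, 8.51, 8.70, 8.82 and 8.94 in null testes, against 7.88, 8.23, 8.35 and 7.99 in WT testes. Its samples were more scattered than those of the first, with null replicate 2 the lowest and WT replicate 3 the highest of their groups, and the gap between the genotypes was 0.16. This is a log2 difference of 0.65 (standard error 0.11, adjusted p = 0.00766 from limma), or 1.57-fold. Array by array, the first probe set stood above the second by 2.36 ± 0.10 (SD, n = 5) in null and 2.30 ± 0.22 (SD, n = 4) in WT testes, and these ranges overlapped. Both probe sets were designed from the same source sequence.

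Whole testis was profiled, so more cells that carry a transcript and more of it per cell cannot be told apart, nor fewer cells from less per cell. Beside the rise of Itga6, markers of Sertoli cells and of Leydig cells rose. Of 5 measured Leydig cell genes 3 rose and none fell, with a median log2 difference of 0.45, beside 0.26 for the Sertoli cell list. Of 11 measured Sertoli cell genes, 7 rose and none fell at an adjusted p under 0.05 from limma, beside 7.22% higher and 6.24% lower of all genes. At an unadjusted p under 0.05, 8 were higher and 0 lower. Their mean log2 signal was 10.13 to 10.31 across null samples and 9.86 to 10.06 across WT samples. The spermatogonial list, the germ cells for which alpha 6 is a marker, had 1 lower gene of 9 (1 higher and 1 lower at an unadjusted p under 0.05 from limma). Its means were 9.73 to 9.78 in null and 9.65 to 9.83 in WT testes. Gfra1 and Kit, which the study's own tables give as higher in null testes, were not on this list. The part of Sertoli cells, Leydig cells or spermatogonia in the values of Itga6 was not tested.

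Itgb1, the beta chain that joins alpha 6 and many other alpha chains, did not pass on any of its 6 probe sets, 3 of which were detected. Probe set 1452545_a_at gave 8.57, 8.36, 8.54, 8.51 and 8.64 in null testes, against 8.39, 8.17, 8.44 and 8.38 in WT testes (log2 difference 0.18, standard error 0.07, adjusted p = 0.184 from limma). On 1426918_at the null samples lay between 9.11 and 9.50 and the WT samples between 8.91 and 9.31 (0.19, standard error 0.10, adjusted p = 0.307). On both, replicate 2 of either genotype was the lowest of its group and the genotypes overlapped. The detected 1426920_x_at differed by 0.01 (adjusted p = 0.933), a probe set whose suffix marks it as open to cross-hybridization, and the undetected ones differed by -0.09 to 0.14.

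Itgb4, the partner of alpha 6 in hemidesmosomes, was read by 1 probe set, at 6.15, 5.90, 6.17, 6.14 and 6.17 in null testes and 6.07, 6.38, 6.16 and 6.35 in WT testes. Null replicate 2 was below all other samples, and the remaining null samples lay within the WT range. Its log2 difference was -0.13 (standard error 0.08, adjusted p = 0.376 from limma). Of the 3 integrin chains only Itga6 passed, and the difference between its change and those of the beta chains was not tested.

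Ilk, the scaffold of the complex, was read by 1 probe set, which gave 10.37, 10.24, 10.25, 10.16 and 10.19 in null testes, against 10.10, 10.47, 10.38 and 10.00 in WT testes. The WT samples were split, replicates 2 and 3 being above every null sample and replicates 1 and 4 below every null sample. The means were 10.24 ± 0.08 (SD, n = 5) in null and 10.24 ± 0.22 (SD, n = 4) in WT testes (log2 difference 0.01, standard error 0.10, adjusted p = 0.981 from limma).

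Lims1 encodes PINCH1, the LIM-domain adaptor that binds ILK, and it was read by 5 probe sets, 4 of them detected. On 1418232_s_at, whose suffix marks probes shared by several transcripts, the null samples were 9.28, 9.26, 9.21, 9.23 and 9.30, against 9.10, 8.91, 8.98 and 9.13 in WT testes. Every null sample was above every WT sample, by a margin of 0.08. The log2 difference was 0.22 (standard error 0.06, adjusted p = 0.0420 from limma), and the call was lost when any single array other than WT replicate 4 was left out, at an adjusted p of 0.0527 to 0.108. The 2 brightest of the other probe sets lay flat: 1418230_a_at gave 9.49 to 9.58 in null and 9.55 to 9.63 in WT testes (-0.04, adjusted p = 0.636), and 1418231_at gave 7.86 to 7.92 in null and 7.90 to 7.96 in WT testes (-0.02, adjusted p = 0.786). The weakly expressed 1443947_at differed by 0.14 (adjusted p = 0.460).

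**Figure D2:**
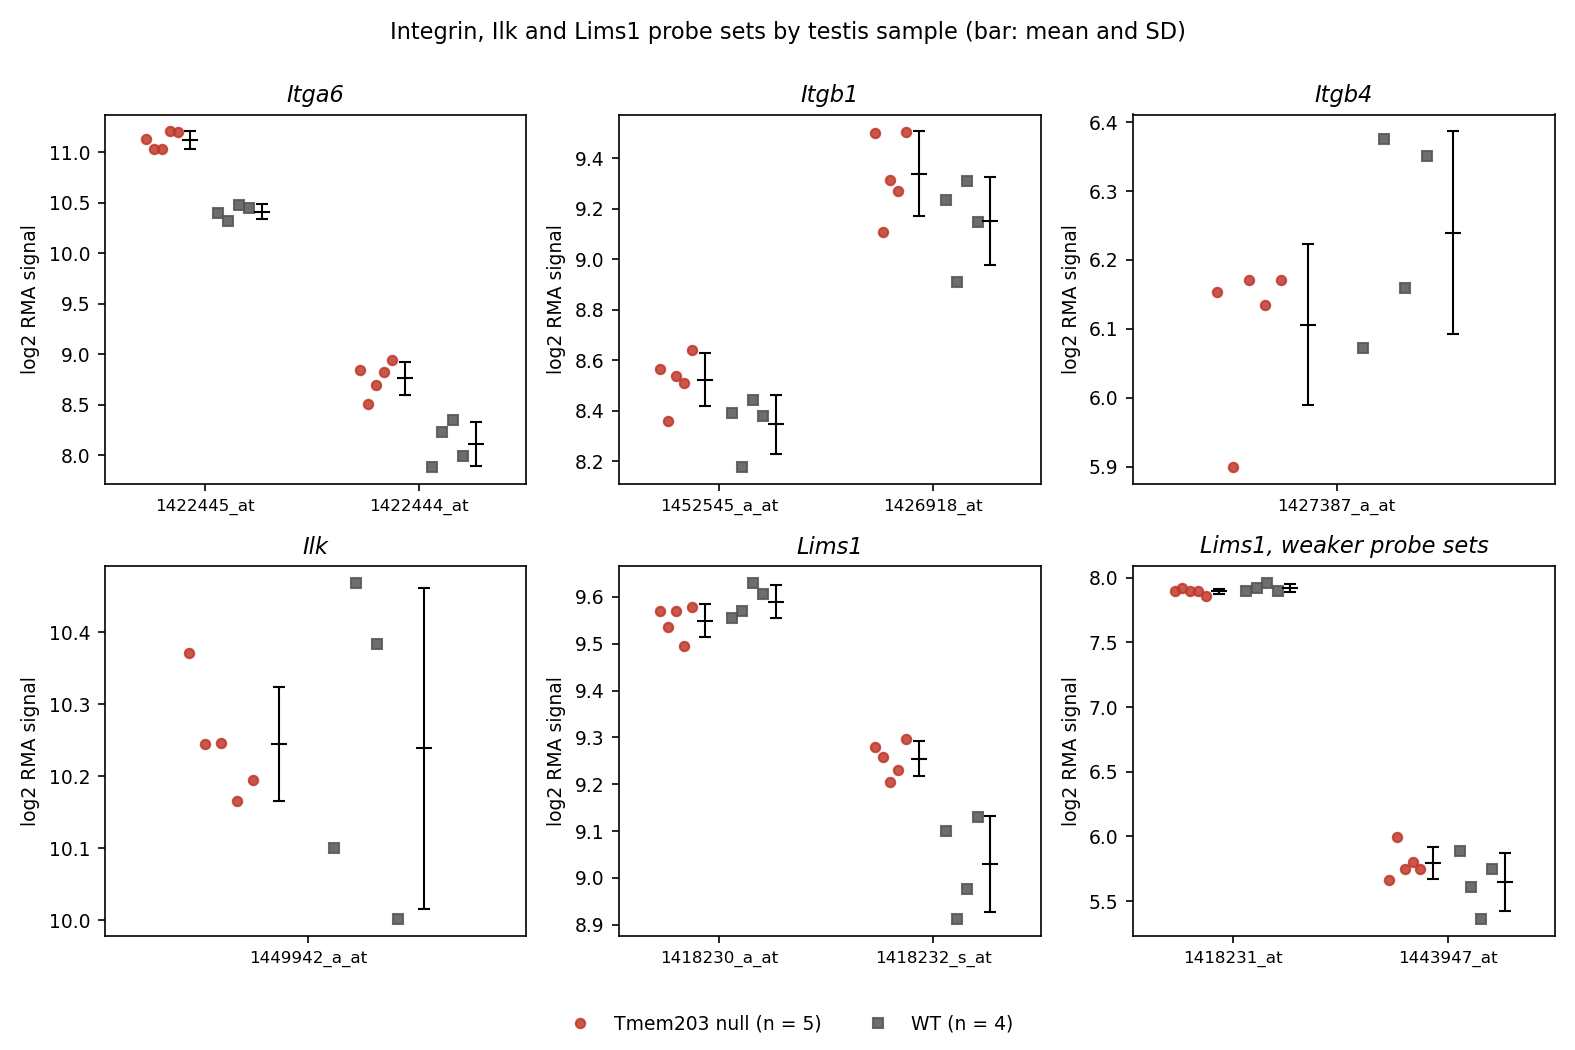
Log2 signal (vertical axis) of the detected integrin, Ilk and Lims1 probe sets except 1426920_x_at in each testis sample, with Tmem203 null samples as red circles left of WT samples as grey squares and a bar for the mean and SD of each group (n = 5 and 4). Itga6 separates the genotypes on both probe sets, Lims1 on 1418232_s_at only, and in all other panels the genotypes overlap. Levels of different probe sets cannot be compared with each other.

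The parvins, which bind ILK and actin, each fell on 1 of their 2 probe sets. Parvg, the form best known from blood cells, ranked first among the members by p. Its probe set 1416876_at gave log2 signals of 8.73, 8.94, 8.93, 8.90 and 8.91 in null testes, against 9.80, 9.88, 9.80 and 9.86 in WT testes. Null replicate 1 was the lowest, and even the highest null sample was 0.86 below the lowest WT sample. The mean was 8.88 ± 0.09 (SD, n = 5) in null and 9.84 ± 0.04 (SD, n = 4) in WT testes, a log2 difference of -0.96 (standard error 0.06, adjusted p = 4.76e-05 from limma), which is 1.94-fold lower, and by p it ranked 6 among all probe sets.

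The other Parvg probe set, 1416875_at, was designed from the same source sequence. It gave 7.81, 8.54, 8.42, 8.31 and 8.29 in null testes, against 8.57, 8.46, 8.39 and 8.52 in WT testes. Null replicate 1 was again the lowest, null replicate 2 was above 3 of the 4 WT samples, and the genotypes overlapped. On the log2 scale the difference was -0.21 (standard error 0.13, adjusted p = 0.351 from limma). Within each array the first probe set exceeded the second by 0.61 ± 0.19 (SD, n = 5) in null and by 1.35 ± 0.09 (SD, n = 4) in WT testes, without overlap, so the 2 probe sets of the gene did not report the same size of change. For leukocytes, in which Parvg is best known, none of 13 genes passed in limma (2 higher and 2 lower at an unadjusted p under 0.05), and the means were 7.72 to 8.08 in null and 7.40 to 8.04 in WT testes. The higher genes were Fcer1g (0.33) and Csf1r (0.28). The lower ones, Laptm5 (-0.17) and Cd8a (-0.29), lay near the detection limit, and Ptprc and Coro1a were taken on undetected probe sets. The part of leukocytes in the values of Parvg was not tested.

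Parva, the broadly expressed form, gave 7.43, 7.18, 7.17, 7.46 and 7.34 on 1416818_at in null testes, against 7.77, 7.76, 8.03 and 7.97 in WT testes. All null samples were below all WT samples, with a gap of 0.30. The log2 difference was -0.56 (standard error 0.09, adjusted p = 0.00437 from limma), and at 1.48-fold it was just under the 1.5-fold threshold, while Parvb at 1.53-fold was just over it. Probe set 1431375_s_at was designed from another source sequence, and its suffix marks probes shared by several transcripts. On it Parva gave 8.24, 8.10, 8.07, 8.13 and 8.06 in null testes, against 7.84, 8.15, 7.88 and 7.89 in WT testes. Here the null samples were above all WT samples but replicate 2, which lay among them. This amounted to a log2 difference of 0.18 (standard error 0.07, adjusted p = 0.164 from limma). Without WT replicate 2 it was 0.25 and passed (adjusted p = 0.0436).

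Parvb, known best from heart and skeletal muscle, gave 5.63, 5.75, 5.81, 5.81 and 5.76 on 1422060_at in null testes, against 6.07, 6.50, 6.60 and 6.30 in WT testes. The null samples were close together, not far above the detection limit of 5, and below all WT samples, which were more widely spread. Its log2 difference was -0.62 (standard error 0.10, adjusted p = 0.00541 from limma). The second probe set, 1438672_at, again from another source sequence, gave 7.10, 6.73, 6.86, 6.97 and 7.04 in null testes, against 6.79, 6.58, 6.63 and 6.55 in WT testes. All null samples but replicate 2 were above all WT samples. The log2 difference was 0.30 (standard error 0.08, adjusted p = 0.0556 from limma), and it passed without null replicate 2 (0.35, adjusted p = 0.0263), without WT replicate 1 (0.35, adjusted p = 0.0455) and when only detected probe sets were tested (adjusted p = 0.0450).

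For Parva and Parvb the 2 probe sets of a gene pointed in opposite directions. Array by array, the falling probe set of Parva minus the other was -0.80 ± 0.11 (SD, n = 5) in null testes and -0.06 ± 0.24 (SD, n = 4) in WT testes, and for Parvb it was -1.19 ± 0.19 in null and -0.27 ± 0.32 in WT testes. In neither gene did the genotypes overlap in this difference. Among genes on these arrays with at least 2 detected probe sets and at least 1 that passed, 37.6% had detected probe sets of both signs, and 87.7% had another detected probe set that did not pass. Which transcript forms the probe sets read was not tested, and the total RNA of the 3 parvin genes cannot be given from them.

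RNA integrity was read from the control transcripts. The 3′ signal of Gapdh exceeded its 5′ signal by 0.85 ± 0.04 (SD, n = 5) in null and by 0.93 ± 0.01 (SD, n = 4) in WT testes, a difference at the smallest p that 5 against 4 samples allow (two-sided exact permutation p = 0.0159). For beta-actin the values were 0.58 ± 0.04 in null and 0.60 ± 0.04 in WT testes (exact permutation p = 0.365). The part of RNA integrity in the opposite probe set changes of the parvins was not tested.

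**Figure D3:**
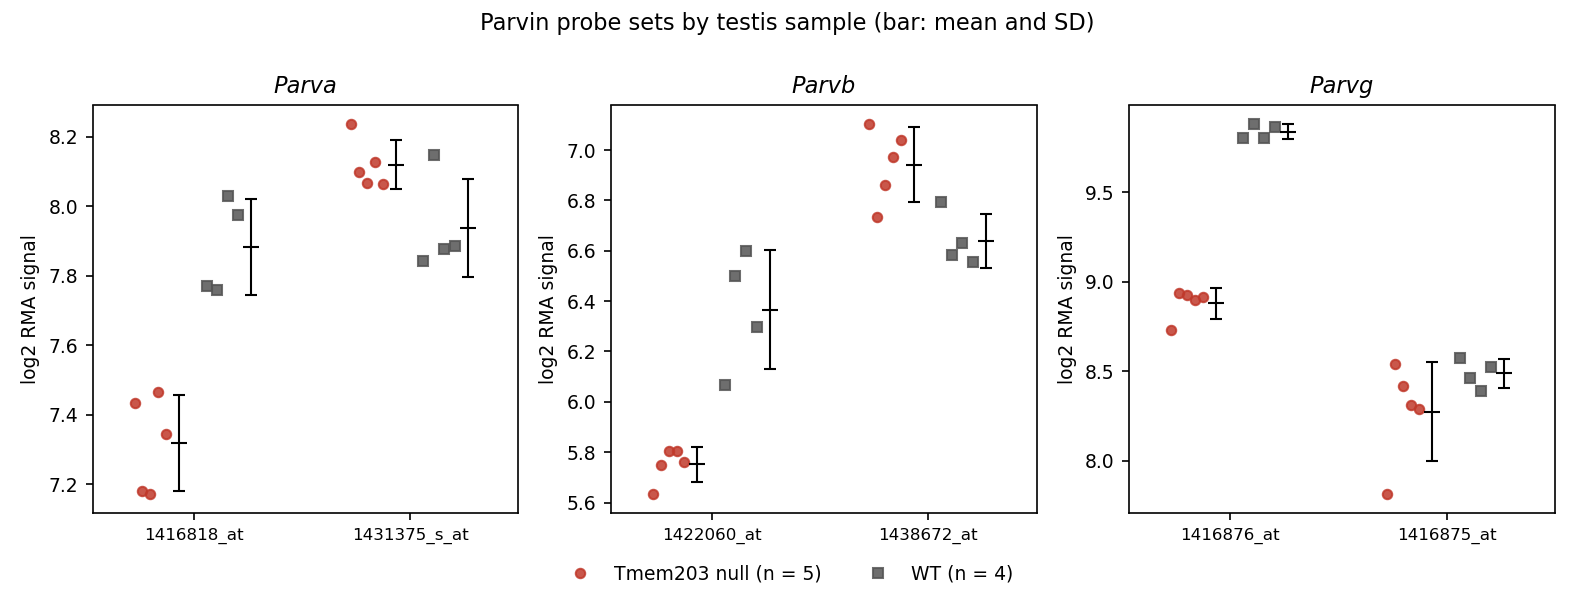
Log2 signal (vertical axis) of both probe sets of Parva, Parvb and Parvg in each testis sample, with Tmem203 null samples as red circles left of WT samples as grey squares and a bar for the mean and SD of each group (n = 5 and 4). The left probe set of each gene is lower in every null sample than in any WT sample, while the right one overlaps and is shifted upwards in null testes for Parva (0.18) and Parvb (0.30) and downwards for Parvg (-0.21).

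Parvb and Parvg are next to each other on chromosome 15 in the RefSeq gene order of GRCm38.p6, between Samm50 and Shisal1. The 2 flanking genes did not pass: Samm50, an outer mitochondrial membrane protein gene, differed by -0.21 (log2, standard error 0.09, adjusted p = 0.211 from limma), and Shisal1 by 0.05 (standard error 0.06, adjusted p = 0.682). Parva and Ilk are both on chromosome 7, and of these only Parva passed.

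Other cell types of the testis were followed by the same kind of lists. Of 5 Leydig cell genes, 3 rose, with means of 11.81 to 12.20 in null and 11.37 to 11.95 in WT testes. Spermatocyte genes gave 11.32 to 11.43 in null and 11.40 to 11.51 in WT testes with 1 of 8 lower, and spermatid genes gave 14.02 to 14.07 in null and 14.05 to 14.09 in WT testes with none of 8 passing in limma and none at an unadjusted p under 0.05. Of 5 platelet genes 1 was higher, of 8 endothelial genes 1 was lower, and of 6 myoid and smooth muscle genes 1 was higher. No marker of these lists was undetected by its brightest probe set, and the part of cell composition in the changes of the members was not tested.

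The wider adhesion pathway was followed in 6 lists of genes outside the members, each gene standing with whichever of its probe sets had the lowest p. Of 92 listed genes 84 were measured, of which 10 rose, 4 fell and 70 did not pass. Those that passed made up 16.7% of the measured genes, beside 13.5% of all 18193 genes (7.22% higher and 6.24% lower). The median log2 difference was 0.07 over the lists and -0.04 over all genes.

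**Figure D4:**
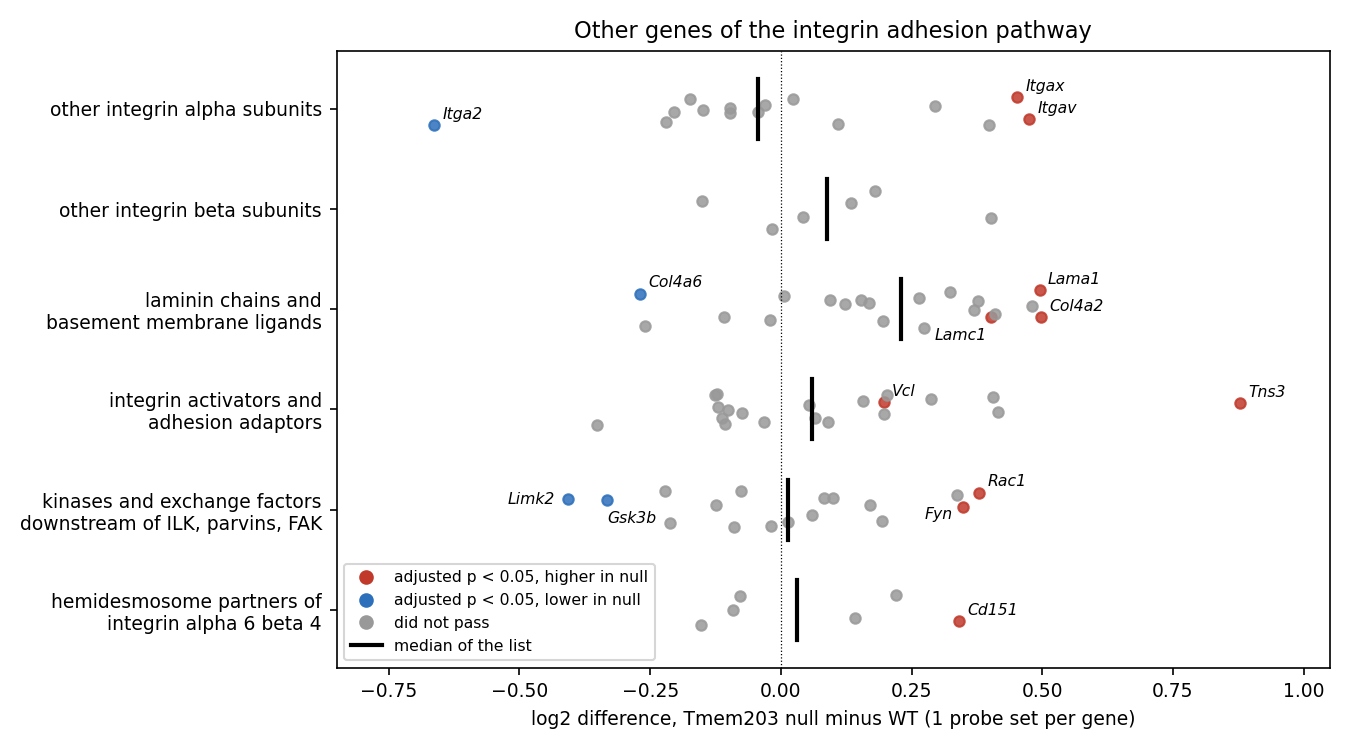
Log2 difference between 5 Tmem203 null and 4 WT testes (horizontal axis, null minus WT) for the 84 measured genes of 6 pathway lists (vertical axis, 1 point per gene, spread vertically for legibility), with genes that passed as higher in red, as lower in blue and not passing in grey. Black bars mark the median of each list, which is highest for the laminin chains and basement membrane ligands at 0.23. Tns3 lies farthest to the right at 0.88 and Itga2 farthest to the left at -0.66.

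Of 15 measured alpha chains other than alpha 6, 2 rose and 1 fell, with a list median of -0.04. Itga2, a collagen and laminin receptor chain, fell to 9.94 ± 0.05 (SD, n = 5) in null testes, against 10.61 ± 0.15 (SD, n = 4) in WT testes (log2 difference -0.66, standard error 0.07, adjusted p = 6.60e-04 from limma). Itgav, the alpha chain of vitronectin receptors, rose by 0.47 (standard error 0.07, adjusted p = 0.00272), while its other detected probe sets were at -0.10 and -0.25 and did not pass. Itgax, the CD11c chain of myeloid cells, rose by 0.45 (standard error 0.11, adjusted p = 0.0343), a call that did not outlast removal of null replicate 1, 2 or 5, or of WT replicate 3 or 4 (adjusted p = 0.0530 to 0.0833).

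None of the 6 beta chains other than beta 1 and beta 4 passed in limma, and none had an unadjusted p under 0.05. Their differences ran from -0.15 to 0.40 with a median of 0.09. Both ends, Itgb6 and Itgb8, came from probe sets not detected on any array, and the detected ones ran from -0.02 to 0.18.

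Among the ligands, 3 of 20 laminin and basement membrane genes rose, 1 fell and 16 did not pass, with a median of 0.23. A positive difference was seen in 16 of the 20, beside 7874 of all 18193 genes. At an unadjusted p under 0.05 from limma, 12 were higher and 2 lower. No share over all genes was worked out for these counts. Taking the lowest p per gene can raise their sum and can also move a gene from one direction to the other. Lama1, the laminin alpha 1 chain of basement membranes, had 7.97 ± 0.11 (SD, n = 5) in null and 7.48 ± 0.07 (SD, n = 4) in WT testes and rose by 0.49 (standard error 0.07, adjusted p = 0.00239 from limma). Col4a2, a collagen IV chain, rose by 0.50 (standard error 0.08, adjusted p = 0.00600). Lamc1, the gamma 1 chain present in most laminins, rose by 0.40 (standard error 0.08, adjusted p = 0.0127), while a second probe set was at 0.12 and did not pass. Col4a6, another chain of that family, fell by 0.27 (standard error 0.05, adjusted p = 0.0166), although its other probe set was at 0.22 and did not pass. Lama5, whose laminins bind alpha 6 beta 1, had values of 0.00 and 0.02 on its detected probe sets.

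Of 20 measured integrin activators and adhesion adaptors, 2 rose, none fell and 18 did not pass, with a median of 0.06. At an unadjusted p under 0.05 from limma, 7 were higher and 2 lower. Tns3, a tensin that binds beta integrin tails, had 10.63 ± 0.12 (SD, n = 5) in null and 9.75 ± 0.15 (SD, n = 4) in WT testes, 1.84-fold higher (log2 difference 0.88, standard error 0.08, adjusted p = 3.30e-04). Vcl, which encodes vinculin, rose by 0.20 (standard error 0.05, adjusted p = 0.0462), but the call was lost when any 1 array was left out (adjusted p = 0.0502 to 0.121), and its other probe set was at -0.24 and did not pass. Both Tns3 and Itga2 are in the study's own tables of changed genes, and those tables were known at the time the lists were drawn up, so they are no independent sign of a direction.

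The direct partners of PINCH1, ILK and the parvins that were followed did not pass. Rsu1, which binds PINCH1, had a log2 difference of 0.42 (standard error 0.12, adjusted p = 0.0688 from limma) that passed without null replicate 2 (adjusted p = 0.0350), with array weights (adjusted p = 0.0378) and with a trended, robust variance (adjusted p = 0.0417). Lims2, the gene of PINCH2, had -0.11 (adjusted p = 0.374). Arhgef6, the Rac and Cdc42 exchange factor alpha-PIX that binds beta-parvin, had 0.11 on its detected probe set (adjusted p = 0.560), and Tesk1, a kinase that alpha-parvin inhibits, had -0.02 (adjusted p = 0.900).

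Of the 17 measured kinases and exchange factors downstream of ILK, parvins and focal adhesion kinase, 2 rose, 2 fell and 13 did not pass, with a median of 0.01. Gsk3b, a kinase of the Akt pathway, passed in both directions: it fell by 0.33 on 1451020_at (standard error 0.05, adjusted p = 0.00491 from limma) and rose by 0.32 on 1437001_at (standard error 0.08, adjusted p = 0.0338). Limk2, a kinase of the actin regulator cofilin, fell by 0.41 (standard error 0.08, adjusted p = 0.0166), but neither of the others, at 0.10 and -0.18, passed. The Src family kinase Fyn rose by 0.35 (standard error 0.07, adjusted p = 0.0192) and by 0.32 on its other probe set, the first of these calls being lost without null replicate 5 (adjusted p = 0.0528). Rac1, a small GTPase of the actin cytoskeleton, rose by 0.38 on 1451086_s_at (standard error 0.09, adjusted p = 0.0361), whose suffix marks shared probes. It was at -0.01 on its other detected probe set. The call for Rac1 was lost without any single null replicate or WT replicate 2 or 3 (adjusted p = 0.0531 to 0.0871).

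Of the 6 hemidesmosome partners of integrin alpha 6 beta 4, 1 rose and 5 did not pass, with a median of 0.03. The tetraspanin gene Cd151, whose product binds laminin-receptor integrins, rose by 0.34 on 1424093_x_at (standard error 0.08, adjusted p = 0.0256 from limma) and by 0.35 on 1451232_at (adjusted p = 0.0349), with 0.01 to 0.25 on its 4 other probe sets. The first call, on a probe set whose suffix marks it as open to cross-hybridization, ended on removal of null replicate 1, 3, 4 or 5, or of WT replicate 1 or 4 (adjusted p = 0.0503 to 0.0634). Plec, the gene of plectin, which ties beta 4 to keratin filaments, had 0.14 (adjusted p = 0.553).

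Genes whose profile over the 9 arrays was nearest to a member were taken from 16179 other genes, by the root mean square difference of log2 signals centred on their own mean. Nearest to Itga6 were Sh3rf1, a ubiquitin ligase with SH3 domains (root mean square difference 0.0522, difference between genotypes 0.65), Smarca1, a chromatin remodelling ATPase (0.0584, with 0.69), and the protein kinase gene Prkx (0.0607, with 0.61). Nearest to Parvg were the phosphatase gene Ptp4a3 (0.0656, with a genotype difference of -0.90), Qtrt2, a subunit of the tRNA queuosine transferase (0.0728, with -0.93), and the signalling adaptor gene Stap2 (0.0766, with -0.95). These profiles share the arrays and the genotype difference by which Itga6 and Parvg stand out.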

How the data were processed

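Testis samples of Tmem203 null (n = 5) and WT (n = 4) mice were compared, n being samples. Per probe set, the authors deposited a log2 signal, made by quality control of the scans and Robust Multichip Average (background adjustment, quantile normalization, summarisation), with no array dropped. Limma is named without a version in the submitters' processing notes, and the genome build is not given in the sources used here. Neither scans nor scan dates were used, and the effects of background correction and batch were therefore not tested. The number of arrays limits the precision.

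From these values, probe sets were fitted on genotype with limma 3.58.1 in R 4.3.3 (lmFit, eBayes), with Benjamini-Hochberg adjustment over 45037 probe sets after leaving out 64 controls. Python 3.11.15 was used for joining tables. Of the probe sets 34945 had 1 gene symbol, 932 several and 9160 none, and 34741 of the first were matched by Entrez identifier to RefSeq (GRCm38.p6), used for names and gene order. A probe set was detected at a log2 signal of at least 5 (a signal of 32) on at least 1 array.

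The members and lists were chosen with earlier results of these data known. Named genes are all members and their direct partners, up to 4 passing genes per list by smallest p, the 3 genes nearest in profile to Itga6 and to Parvg, the neighbours of Parvb and Parvg, and Tmem203. Simulated data for 45037 probe sets had independent normal noise, with changes planted only where the mean signal was above the detection limit. In these, limma recovered 42 of 50 changes of 1.5-fold and 47 of 50 of 2-fold. Of its calls, 3.08% were false. Recovery for weaker probe sets was not simulated. Alternatives changed the centring, the normalization between arrays, the weighting of arrays, the variance model, the detection filter, the treatment of cross-hybridizing probe sets, the probe set per gene and the fold threshold (2-fold), took replicate number as a block, or dropped single arrays.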

Additional observations from a re-analysis of the deposited data

Results flagged for a closer look

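Each group of 4 or 5 samples was examined for a single sample far from the rest, by the gap to its nearest neighbour as a share of the group's range. Of 84 groups (42 probe sets, 21 of them of the members), 4 had such a sample, all among the members, and chance gives about 1 in 20 groups. On Parvg 1416876_at, null replicate 1 was the lowest at 8.73, against 8.90 to 8.94 in the other null samples (share 0.818). On Parva 1431375_s_at, WT replicate 2 was the highest at 8.15, against 7.84 to 7.89 in the other WT samples (share 0.86), and without it the positive difference of this probe set passed, at 0.25 (adjusted p = 0.0436 from limma). On Itgb4, null replicate 2 was the lowest at 5.90, against 6.14 to 6.17 in the others (share 0.867). On Lims1 1441411_at, which was not detected on any array, null replicate 1 was the lowest at 3.99, against 4.19 to 4.23 (share 0.83).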

How the results depend on the processing

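In every alternative 3 member probe sets were lower in null testes. The count of higher ones was 3, against 1 with the replicate block, 2 with median centring, quantile normalization, array weights or no cross-hybridizing probe sets, 4 over detected probe sets and 2 to 3 with single arrays left out. The count kept at the methods' thresholds was 4, against 0 at a 2-fold threshold, 5 with median centring or quantile normalization, 3 with array weights or the replicate block and 3 to 5 with single arrays left out. The labels do not say whether the replicate numbers pair the samples. Deviations of same-numbered samples correlated at -0.07 to 0.10, and those of differently numbered ones at -0.15 to 0.20. So few correlations cannot settle whether the samples are paired. With the number as a block, where null replicate 5 has no WT sample of its number and does not enter the difference, 1174 probe sets passed in place of 3367, and Itga6 1422444_at (adjusted p = 0.0721) and Lims1 1418232_s_at (adjusted p = 0.171) did not pass. The block left 2 laminin and basement membrane genes in place of 4, 1 adaptor in place of 2, no kinase (0 in place of 4) and no hemidesmosome gene (0 in place of 1). The laminin count was 7 with array weights, 8 over detected probe sets and 4 to 6 with single arrays left out. The adaptor count was 1 with median centring, 4 with a trended, robust variance, 1 without cross-hybridizing probe sets and 1 to 2 with single arrays left out. The hemidesmosome count was 0 by the brightest probe set and 0 to 1 with single arrays left out, and the kinase count with single arrays left out was 2 to 4, the 2 being without null replicate 5. The alpha chain count moved by no more than 1.5 times and the beta chain count was 0 in all alternatives. With single arrays left out, 1925 to 3603 probe sets passed. Lims1 1418232_s_at also failed with median centring (adjusted p = 0.0703), quantile normalization (adjusted p = 0.0594) and array weights (adjusted p = 0.0633). The causes were not tested.

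Directions turned only for values near 0 that did not pass: Ilk was -0.0259 with median centring, -0.00769 with quantile normalization and -0.0734 to 0.0822 with single arrays left out, Itgb1 1426920_x_at was -0.0187 with median centring and -0.0343 to 0.0519 with arrays left out, and Plec was -0.0154 to 0.220 and Tesk1 -0.0907 to 0.0138 with arrays left out. Centring put Parva 1416818_at past 1.5-fold, at -0.60. Over all alternatives, 587 other values for single probe sets kept their direction and side of the threshold, 54 lost the call and 7 gained it.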
